A study of Mus musculus with 8 samples.

Results

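The baseline methylome of NIC-5231 mammary tumors was described from the 2 libraries of vehicle-treated mice, out of 8 libraries in the series. NIC-5231 is a mouse cell line from an ErbB2-driven mammary tumor, and 1000000 cells had been placed in the fat pad of immunodeficient NSG mice aged 5 to 7 weeks. Vehicle (saline with 30% PEG and 5% DMSO) was injected into the peritoneum every 2 days, and neither C29, an inhibitor of the nuclear receptor ERRα, nor the DNMT inhibitor 5-azadC was given. Each library pooled tumor DNA of 2 of the 5 mice in the group and was read by reduced representation bisulfite sequencing (RRBS), in which MspI fragments are sequenced after unmethylated cytosines have been converted. The members were the autosomal cytosines of CpG sites with at least 10 reads in both libraries, with the strands of a CpG kept apart. They numbered 1187369, of 2409900 autosomal cytosines listed in either library, and made up 2.91% of the CpG cytosines of the GRCm38 autosomes. A single tumor line was used, and host cells in the tumors are also from mice, so that their DNA cannot be told apart.

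In mammals, methyl groups are added to cytosines of CpG sites de novo by DNMT3A and DNMT3B and are copied after replication by DNMT1. Most CpG sites of the genome are methylated, while CpG-rich stretches at gene starts, called CpG islands, are usually free of methylation. Known exceptions are promoters of germline genes, which are methylated in somatic cells, and imprinted promoters, which are methylated on a single parental allele. Tumors are known for gains of methylation at CpG islands of developmental genes.

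Stretches of promoters described below were taken from the GRCm38.p6 genome, each upstream of its gene start and written 5′ to 3′ along the gene, with the measured CpG sites in capitals. The genes were chosen after their values had been seen, from the germline, imprinted, housekeeping and ErbB genes and the genes around ERRα and DNA methylation.
Polr2a, chr11:69758726-69758813, minus strand: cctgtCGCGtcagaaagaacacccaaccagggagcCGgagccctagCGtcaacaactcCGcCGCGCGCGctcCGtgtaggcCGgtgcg
Erbb2, chr11:98412345-98412469, plus strand: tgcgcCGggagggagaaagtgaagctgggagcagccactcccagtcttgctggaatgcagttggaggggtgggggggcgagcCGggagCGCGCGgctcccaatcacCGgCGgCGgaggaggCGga
Irf4, chr13:30749062-30749207, plus strand: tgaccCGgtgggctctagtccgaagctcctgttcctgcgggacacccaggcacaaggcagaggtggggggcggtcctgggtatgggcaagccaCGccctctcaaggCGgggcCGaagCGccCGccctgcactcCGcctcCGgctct
Zrsr1, chr11:22971858-22972004, plus strand: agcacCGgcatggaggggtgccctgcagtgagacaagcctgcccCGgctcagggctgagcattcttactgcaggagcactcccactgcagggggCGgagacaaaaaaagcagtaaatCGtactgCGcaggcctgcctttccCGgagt
Dazl, chr17:50294107-50294243, minus strand: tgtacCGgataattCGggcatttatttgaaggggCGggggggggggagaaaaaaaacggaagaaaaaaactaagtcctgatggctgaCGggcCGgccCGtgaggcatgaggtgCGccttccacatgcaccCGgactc
Hormad1, chr3:95559522-95559676, plus strand: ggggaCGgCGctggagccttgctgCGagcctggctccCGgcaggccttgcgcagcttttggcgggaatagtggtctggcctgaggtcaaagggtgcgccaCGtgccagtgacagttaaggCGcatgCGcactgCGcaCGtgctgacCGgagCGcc
All 19 cytosines measured in the stretch of Polr2a, which encodes the large subunit of RNA polymerase II, were at 0% in both libraries. In the stretch of Erbb2, the receptor tyrosine kinase gene, 9 cytosines lay between 0% and 3.45%. The 8 cytosines in the stretch of Irf4, an interferon regulatory factor gene, ranged from 0% to 73.8% in vehicle 1 and were all at 0% in vehicle 2. Most of them had only 12 reads in vehicle 2, against 61 in vehicle 1. Summed over the cytosines the reads were 117 against 461. The level of the whole Irf4 promoter given below was higher. Levels in Zrsr1, an imprinted splicing factor gene, ran from 0% to 70.97% in vehicle 1 and from 29.8% to 82.1% in vehicle 2. Dazl and Hormad1, genes of germ cells and of meiosis, had 85.6% and 97.8% of reads methylated in vehicle 1, and 89.6% and 88.1% in vehicle 2. In Zrsr1, 4 cytosines of the minus strand had the same level within each library, 56.2% of 32 reads in vehicle 1 and 36.4% of 55 reads in vehicle 2, so that neighbors on a fragment were not independent measurements.

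The libraries were of similar depth, with 70254846 and 70790628 reads summed over listed cytosines. The members had a median of 36 reads in vehicle 1 and 35 in vehicle 2. Of the spike-in DNA, the unmethylated control was read as methylated in 0.234% and 0.302% of reads, and the methylated control in 98.2% and 98.0%. Reads are not marked by molecule of origin, so an interval or a test on them covers no more than counting error. In sums over cytosines a read counts at each cytosine it covers. Intervals and tests on such sums can cover less than counting error. Where libraries are given in order, vehicle 1 comes first.

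As read at this depth, methylation of single cytosines was split between the extremes. The mean level was 37.0% in vehicle 1 and 36.9% in vehicle 2, or 37.0% ± 0.0210 (SD, n = 2). At 10% or less lay 53.1% and 54.4% of cytosines, and at 90% or more lay 26.3% and 27.6%. Exactly 0% was read at 51.4% and 53.0% of cytosines, and exactly 100% at 23.97% and 25.7%. The levels between 10% and 90% were left with 20.6% of cytosines in vehicle 1 and 17.9% in vehicle 2. By the mean of the libraries, 28.3% of cytosines lay there. That share was 23.1% with 10 to 19 reads in the shallower library and 39.7% with 80 to 159. Readings at an exact extreme were more frequent at low depth, as described below. Mean levels by autosome ran from 33.8% on chromosome 19 to 39.3% on chromosome 10, with differences between libraries of at most 0.289 percentage points.

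**Figure D1:**
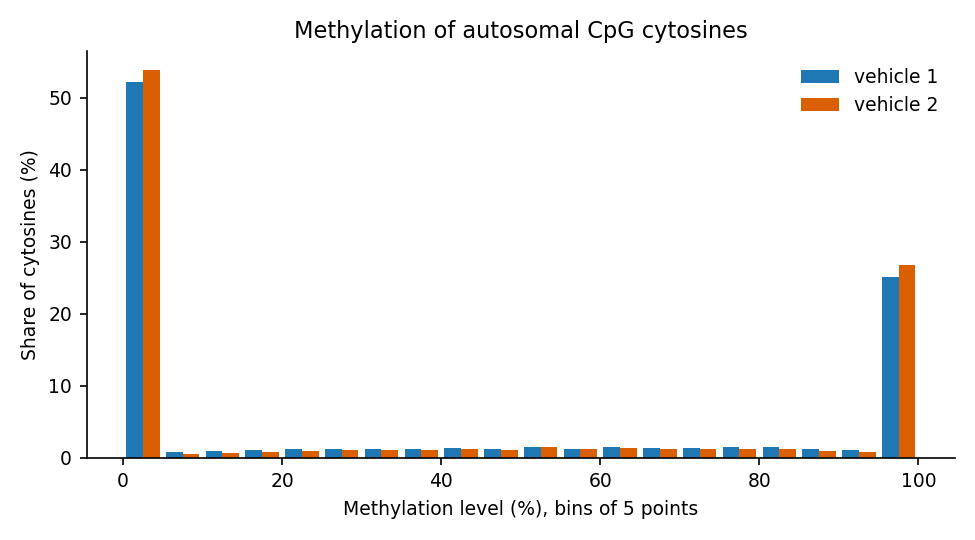
Share of the 1187369 autosomal cytosines (vertical axis, percent) in bins of 5 points of methylation (horizontal axis, percent), with a bar for each vehicle library. The lowest bin held 52.3% and 53.8% of cytosines and the highest 25.1% and 26.8%, with few cytosines in every bin between. Cytosines with as few as 10 reads are included, and at low depth exact extremes were read more often.

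Where a cytosine lay went with its level. In GENCODE M21, promoters (the 1000 bp upstream of a protein-coding gene start) had a mean of 8.21% ± 0.0218 (SD, n = 2), against 27.8% ± 0.0765 in exons, 42.7% ± 0.0380 in introns, 57.7% ± 0.0712 between genes within 10 kb of a gene and 64.9% ± 0.332 farther away. The gap between exons and introns was smaller among cytosines over 5 kb from gene starts, at 62.0% and 63.6%. Repeats (the soft-masked sequence of the genome) held 8.37% of the members against 32.4% of the autosomal sequence. Their mean level was 59.9%, and it was 34.9% outside repeats, while over 5 kb from gene starts the corresponding means were 72.4% and 61.5%. Both libraries gave the same order for each of these classes. The classes were not tested against each other, and the errors are the spread between the libraries.

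Levels fell with CpG density. Cytosines with 1 or 2 CpG sites within a 200 bp window averaged 67.6%, those with 9 or 10 averaged 52.2%, and those with 21 or more averaged 7.20%. Among cytosines over 5 kb from any coding start, the means were 68.3% with 1 or 2 CpG sites and 18.0% with 21 or more, and the course differed. There levels stayed between 68.3% and 70.9% up to 10 CpG sites in the window and then fell to 52.6% at 13 to 15 and 31.5% at 16 to 20.

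Around starts of protein-coding genes, methylation formed a trough. It averaged 63.8% at 10 to 50 kb upstream, 54.9% at 2 to 5 kb, 42.3% at 1 to 2 kb, 20.2% at 500 to 1000 bp and 5.55% in the last 200 bp before the start. Downstream it was 5.81% in the first 200 bp, 9.84% at 500 to 1000 bp, 21.9% at 1 to 2 kb and 44.1% at 2 to 5 kb. The trough was thus wider on the transcribed side of these gene starts. A gene start is the outermost annotated one, so other starts of the same gene lie downstream of it. Their part in the shape of the trough was not tested. The 2 libraries differed by at most 0.441 percentage points in any of these intervals. Within 200 bp of a start the mean was 5.63% in vehicle 1 and 5.78% in vehicle 2, and at 2 to 5 kb on either side it was 47.5% and 47.6%. With every annotated start of a coding transcript in place of the gene start, the level at 2 to 5 kb was 60.2%. The upstream and downstream sides were not taken apart in that setting.

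The level at the start went with the CpG content of the promoter. Starts were classed as high (a 500 bp window with an observed to expected CpG ratio over 0.75 and a GC content over 0.55), low (no window with a ratio over 0.48) or intermediate. Within 200 bp of the start, cytosines averaged 4.05% and 4.18% at high-CpG starts, 16.3% and 16.6% at intermediate starts and 47.3% and 48.0% at low-CpG starts. At 2 to 5 kb the means over both sides were 51.5% around high-CpG, 46.2% around intermediate and 41.8% around low-CpG starts, and the sides differed. Upstream, low-CpG starts were still the highest, at 61.3% against 53.0% for high-CpG and 52.6% for intermediate starts, while downstream they were the lowest, at 34.4% against 50.7% and 43.5%. Around low-CpG starts the lowest levels lay downstream, at 22.4% and 23.2% from 750 to 1000 bp and 20.8% and 20.4% from 1000 to 1250 bp. Other annotated starts of the same genes can lie there, and their part was not tested. Cytosines within 200 bp of low-CpG starts were few, at 2310 against 183170 near high-CpG starts.

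**Figure D2:**
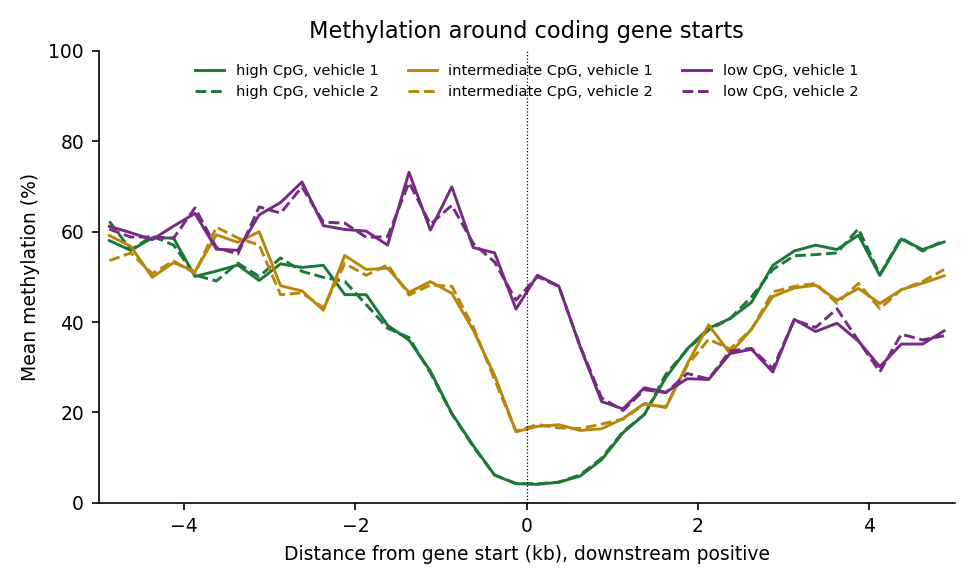
Mean methylation (vertical axis, percent) in bins of 250 bp by distance from the nearest coding gene start (horizontal axis, kb), for starts of high, intermediate and low CpG content, with a solid line for vehicle 1 and a dashed line for vehicle 2. High-CpG starts sit near 4% in both libraries from just before to just after the start. Low-CpG starts stay over 40% in the bins that touch it and are lowest from 1000 to 1250 bp downstream, at 20.8% and 20.4%.

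Promoters of single genes were then given a level, methylated reads over all reads, both summed over the cytosines. They were scored where at least 3 cytosines were measured in the 1000 bp upstream. This was possible for 8557 of 20807 autosomal coding genes. A promoter was called free at 10% or less in both libraries (6313 promoters, 73.8%), methylated at 70% or more in both (333, 3.89%) and intermediate otherwise (1911, 22.3%). Free promoters had a median level of 0.0578%, and 2883 of them had no methylated read in either library. Methylated promoters had a median of 89.4%, and 38 were at 100% in both. Within 2 points of the limit for a free promoter lay 159 promoters on its free side and 115 beyond it, and 20 and 18 lay within 2 points on either side of the limit for a methylated promoter. For 1041 promoters the cytosines were shared with another gene, so promoters are not independent counts.

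RRBS reached promoters by their CpG content. Of high-CpG promoters 70.98% were measured, of intermediate ones 33.4% and of low-CpG ones 4.53%, so that the class shares speak of CpG-rich promoters first. Among 6928 measured high-CpG promoters, 81.1% were free and 1.28% methylated. Among 1306 intermediate promoters, 49.5% were free and 11.5% methylated, and among 323 low-CpG promoters, 14.9% were free and 29.1% methylated.

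Intermediate promoters often mixed levels along their length. In 400 of them at least 3 cytosines were measured in both the near and the far 500 bp. Their medians were 10.8% and 9.98% in the near 500 bp and 43.0% and 42.1% in the far 500 bp. The far part was higher by at least 25 points in both libraries in 158 (39.5%), and the near part in 10. By single cytosines, intermediate promoters had 43.5% at 10% or less and 6.21% at 90% or more, against 97.4% and 0.0587% in free promoters and 1.23% and 60.4% in methylated ones.

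The gene lists were read against these shares. Of the germline and pluripotency list, 8 of 11 measured promoters were methylated and 1 was free, with a median level of 87.6% (all measured promoters: 0.474%). Hormad1, which acts on meiotic chromosome axes, stood at 97.7% and 91.7%, with 95% Wilson intervals of 96.5% to 98.5% and 89.9% to 93.1%. Slc25a31, which encodes a testis ADP/ATP carrier, stood at 96.2% and 96.9%. Mael, a gene of the piRNA pathway, was at 93.8% and 100%, and Sycp1, a synaptonemal complex gene, at 86.1% and 82.1%. Prdm9, which places meiotic recombination sites, was the single free promoter, at 0% in both libraries over 4 cytosines. Smc1b, a meiotic cohesin gene, lay at 53.1% and 55.3%. When the 500 bp on either side of the start were scored instead, 20 of 23 measured members were methylated, among them Ddx4, the germ cell helicase gene, at 85.4% and 80.2%.

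Of 10 measured imprinted genes or genes of imprinting control, 7 were intermediate, 2 methylated and 1 free, with a median of 47.3%. The intermediate share, 70%, stood beside 22.3% of all measured promoters and 17.6% of those of high CpG content. The promoter of Igf2r, the receptor that clears IGF2, stood at 40.9% and 57.4% over 31 cytosines. Zrsr1 was at 49.8% and 48.3%, and Usp29 at 48.8% and 42.4%. The other intermediate ones were Rasgrf1 (17.5% and 33.1%), Slc22a3 (31.3% and 36.9%), Gnas (26.3% and 44.6%) and Mcts2 (78.2% and 68.0%). Nnat, an imprinted membrane protein gene, was methylated in both libraries at 94.0% and 87.5%, and Sgce at 80% and 77.9%. Ube3a, imprinted in neurons, was free at 0% and 0%.

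Housekeeping promoters were free in 12 of 15 cases (80%), near the share among high-CpG promoters (81.1%), to which 14 of them belonged, and had a median level of 0.144%. Polr2a and Eef2, a translation elongation factor gene, had no methylated read in either library, and Actb, the cytoplasmic actin gene, was at 0% and 1.33%. Chmp2a, a gene of the ESCRT machinery, was methylated at 88.6% and 88.1% over 5 cytosines of the upstream window, while the 500 bp on either side of its start were at 0% and 0.738%. Ywhaz, a 14-3-3 protein gene, had 3 cytosines at 98.0% and 51.9%. With the window centered on the start, 25 of 26 measured housekeeping promoters were free.

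Developmental regulators took the middle of the scale. Of 25 measured Hox promoters 21 were intermediate, 2 methylated and 2 free, with a median of 28.5%, and of 32 other developmental transcription factors 26 were intermediate, 2 methylated and 4 free, with a median of 22.1%. The shares of intermediate promoters, 84.0% and 81.2%, stood beside 22.3% of all measured promoters and 17.6% of those of high CpG content. Hoxa11, which patterns the limb and the uterus, lay at 56.0% and 52.4%, and Hoxd10 at 56.1% and 57.4%. Hoxa6 was methylated, at 87.5% and 73.0%, but intermediate around the start, at 86.6% and 68.5%. Among the other factors, Pax9 was at 41.1% and 37.6%, Nkx2-2 at 16.7% and 21.2% (10.7% and 7.63% around the start), and Pax2 at 5.91% and 13%. The libraries were called different by the Fisher's exact test described below at 3 of these promoters, Hoxa13 (0% and 32.7%), Hoxb5 (0% and 26.9%) and Pax3 (5.13% and 41.3%). All 3 were intermediate. Among all measured promoters 3.75% were called, and among intermediate ones 16.6%, so the count does not set these genes apart.

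Promoters of luminal epithelial markers were free in 10 of 13 measured cases (76.9%), near the 73.8% of all measured promoters, with a median of 0.687% against 0.474%. Esrp2, a splicing regulator of epithelial cells, Foxa1, a pioneer factor, and Cldn3, a tight junction gene, had no methylated read. Epcam, an epithelial adhesion gene, was intermediate at 15.2% and 15.7%, and Ovol2 at 24.04% and 38.7%, while around the start Ovol2 was free at 1.24% and 0% over 37 cytosines. In that window 14 of 19 luminal markers were free and 5 intermediate, where all measured promoters gave 76.4% and 19.5%. The intermediate ones were Epcam, Ehf, Gata3 (26.0% and 42.1%), Pgr (49.4% and 40.3%) and Spdef (66.7% and 86.4% over 3 cytosines). Of 9 measured fibroblast and mesenchyme markers 6 were also free, among them Fn1, Snai1 (intermediate around the start, at 4.89% and 15.1%) and Twist1, while Col1a2, a collagen I chain gene, was methylated at 78.7% and 82.0%. Of 5 basal and myoepithelial markers 2 were free, 3 intermediate and 0 methylated, and Tagln, a smooth muscle actin-binding gene, was at 78.1% and 64.2%. Among 5 endothelial markers 0 were free, 4 intermediate and 1 methylated, with a median of 19.4%. The methylated one was Cldn5, of endothelial tight junctions, at 73.6% and 70.1%, which was intermediate around the start at 48.3% and 80.6%, where 0 of 6 were methylated. A single hematopoietic marker of 29 listed could be scored upstream (Ikzf3, at 68.6% and 60.0%, and at 36.9% and 48.6% around the start). Around the start, 3 of 7 were methylated, 4 intermediate and 0 free, with Cd79a, of the B cell receptor, at 100% in both over 3 cytosines. A free promoter does not show that a gene is expressed, and the tissue label could not be checked by expression here.

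Promoters around ERRα and DNA methylation, the subject of the study, were free in 8 of 10 measured cases (80%), beside 73.8% of all measured promoters and 81.1% of those of high CpG content. Among the free ones were Esrra, which encodes ERRα, at 0.242% and 0%, Dnmt3b at 0% and 0%, Mat2a, a methionine adenosyltransferase gene, at 0.134% and 0%, and Uhrf1, a partner of DNMT1, at 1.88% and 6.5%. Irf4 was intermediate, at 40.3% (95% Wilson interval 37.0% to 43.7%) and 44.6% (39.8% to 49.6%) over 13 cytosines. Around its start the libraries parted, with 24.6% of 532 reads and 7.83% of 166 reads, summed over 9 cytosines. All 9 lay upstream, within the same promoter, and none past the start was measured in that window. Also intermediate was Esrrg, the gene of the related receptor ERRγ, at 34.1% and 26.4%. Dnmt1 and Dnmt3a were not among the measured promoters. Of 18 tumor suppressors often methylated in human breast cancer, 14 were free upstream (77.8%), 4 intermediate (22.2%) and 0 methylated. These shares were near those of all measured promoters (73.8%, 22.3% and 3.89%). Around the start a smaller part was free, with 16 of 26 free, 9 intermediate and 1 methylated. The methylated one was Dkk3, at 100% and 71.8% over 4 cytosines. All promoters measured in that window gave 76.4%, 19.5% and 4.12%. Cdkn2a and Brca1 stood at 0% in both libraries, while Hoxa5 was at 46.1% and 25.8% (20.6% and 18.7% around the start), Ccnd2 at 28.5% and 31.8%, and Mgmt, a DNA repair gene, at 52.4% and 33.6%.

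**Figure D3:**
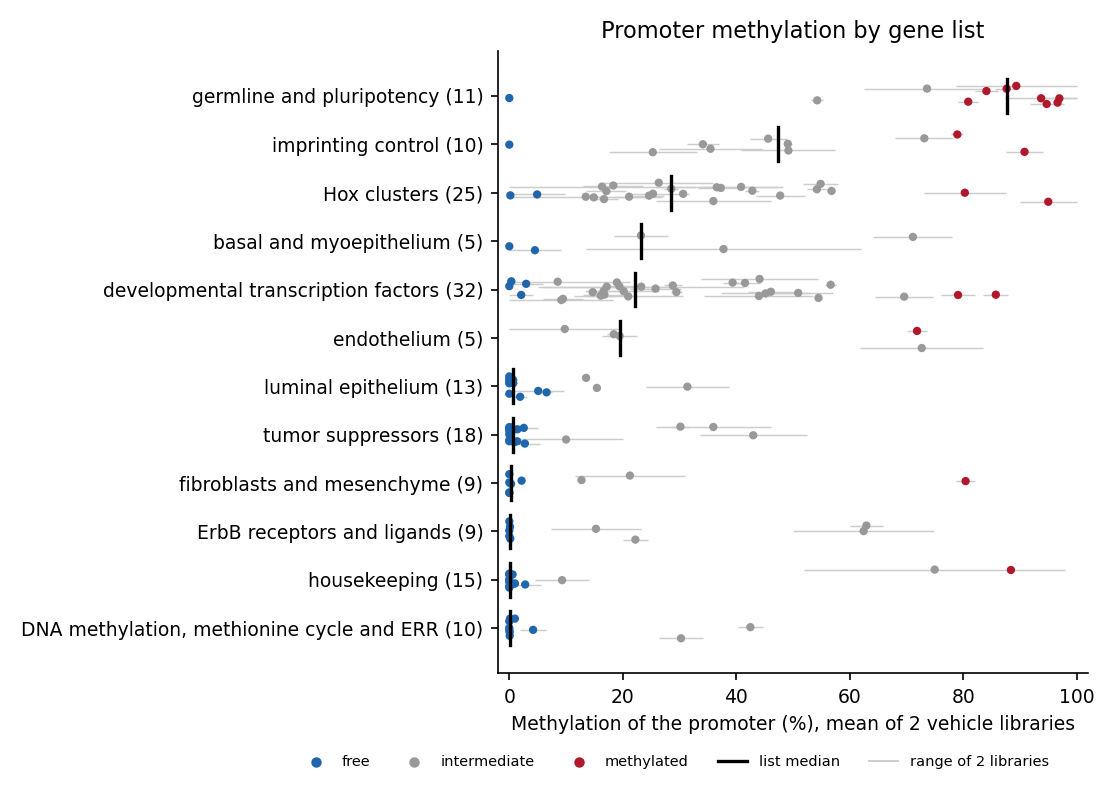
Promoter methylation (horizontal axis, percent) for the measured members of each gene list with at least 5 members, whose number stands in parentheses. Points are means of the 2 vehicle libraries colored by class, grey lines join the 2 libraries and black bars are list medians, which run from 0.0938% for genes of DNA methylation, the methionine cycle and ERR to 87.6% for germline genes.

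Among ErbB receptors and their ligands, 5 of 9 measured promoters were free (55.6%) and 4 intermediate (44.4%), beside 73.8% and 22.3% of all measured promoters. Of high-CpG promoters, to which 7 of the 9 belonged, 81.1% were free and 17.6% intermediate. Around the start 8 of 15 were free and 7 intermediate, where all measured promoters gave 76.4% and 19.5%. Erbb3, the partner receptor of ErbB2, was at 0.243% and 0% over 62 cytosines, and the ligand genes Hbegf and Nrg4 at 0% in both. The ligand gene Nrg3 stood at 74.9% and 49.9%, Ereg at 65.8% and 60.0%, and Nrg1 at 24.4% and 20.02% (53.5% and 28.0% around the start). Erbb2 was free upstream, at 0% and 0.340%, yet the first 500 bp of the gene (chromosome 11, gene start 98412470, plus strand) averaged 65.98% and 60.8% of reads. There 20 of the 49 cytosines had at least 353 reads in vehicle 1 and 270 in vehicle 2, all in annotated exons, and their levels lay between 62.0% and 85.1% in vehicle 1 and between 59.9% and 76.3% in vehicle 2. The other 29 had medians of 26 and 22 reads and of 0% in both libraries, and 28 of them had a mean of 10% or less. Over the whole gene 28 of 99 measured cytosines had at least 150 reads in both libraries (28.3%, against 0.209% of all autosomal cytosines), and all 28 were exonic, against 30 of the other 71. The limit of 150 reads was chosen after the values had been seen, and the origin of the deep reads was not tested.

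The methylated promoters richest in CpG sites were picked by their observed to expected ratio among the 54 with at least 10 cytosines. In descending order they were Lin28b, 3110070M22Rik, Tex14, 4933428G20Rik, Gm10715, Zfp541, Tssk3, R3hdm4, Sox30 and Rad51c. The promoter of 3110070M22Rik was unusually deep, with 22175 and 19188 reads summed over 78 cytosines. That of Tssk3 had 3135 and 3341 over 85 cytosines. The origin of the extra reads was not tested. Lin28b, which blocks let-7 maturation, had the highest ratio, 1.02, and stood at 70.6% and 79.3%. Tex14 is needed for intercellular bridges of germ cells and shares its start region with Rad51c, a recombination gene, and they were at 87.4% and 100% and at 93.3% and 98.6%. Zfp541, Tssk3 and Sox30, genes of the testis, were at 91.6% and 94.4%, 80.9% and 75.7%, and 88.8% and 83.3%. Papolb, a testis poly(A) polymerase gene, was also among the 89 methylated high-CpG promoters, at 85.1% and 82.3%, and was named after its value had been seen.

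The reverse case, free promoters poor in CpG sites, was taken from 4239 free promoters with at least 10 cytosines. The lowest ratio was that of Eps8l2, 0.130, with levels of 4.60% and 0%. Trf, the transferrin gene, followed at 1.57% and 0%, with the same 10 cytosines as Gm20425. Others were Gm3336, Hectd4, Svbp, Spata24, Sipa1 and Polr2f, of which Gm3336, Hectd4 and Svbp had no methylated read. Spata24 was the highest of the 10, with 8.31% in vehicle 1 and 0% in vehicle 2.

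Short sequence motifs were counted on both strands from 250 bp upstream to 50 bp downstream of each start, within the high-CpG promoters. GGGCGGGG, bound by SP and KLF factors, occurred in 41.1% of free, 38.9% of intermediate and 15.7% of methylated promoters (40.4% of all high-CpG promoters measured). CCGGAAGT, bound by ETS factors, occurred in 10.3%, 5.66% and 2.25% (9.38% of all). GCATGCGC, an NRF1 sequence, occurred in 6.46%, 3.69% and 5.62% (5.96% of all). TTCCCGCC, bound by E2F factors, was present in 5.68%, 3.77% and 11.2% (5.41% of all), the last being 10 of 89 promoters, and the E-box CACGTG in 11.5%, 11.4% and 13.5% (11.5% of all). These shares are descriptions without a test, and the motifs partly overlap in sequence with CpG sites themselves.

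At single cytosines the vehicle libraries were close on average and apart at many sites. Pearson's r over the 1187369 cytosines was 0.819. The absolute difference averaged 12.3 percentage points, and 19.2% of cytosines differed by at least 25 points, while 63.5% were read at the same extreme, 0% or 100%, in both. The extremes were opposite at 29699 cytosines (2.5%). The root mean square difference was 26.4 points, where counting error alone gives 6.14. The libraries are of separate pools of mice, so that differences between the pools are part of it. With 10 to 19 reads in the shallower library, r was 0.758 and 5.27% of cytosines were at opposite extremes. With 80 to 159 reads, r was 0.932 and 0 of 32079 were.

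Readings at an exact extreme were more frequent at low depth. Cytosines were taken that lay between 20% and 80% in a library with at least 80 reads. In vehicle 1, 76.6% of them were read at exactly 0% or 100% when covered by 10 to 19 reads (counting error alone gives 0.946%). The share was 47.6% at 20 to 39 reads, 23.04% at 40 to 79, 10.1% at 80 to 159 and 1.84% at 160 or more. Vehicle 2 gave 77.2%, 47.2%, 25.9%, 11.9% and 2.23%. Differences between the pools of mice enter these shares too, and the number of DNA molecules behind a cytosine was not measured.

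**Figure D4:**
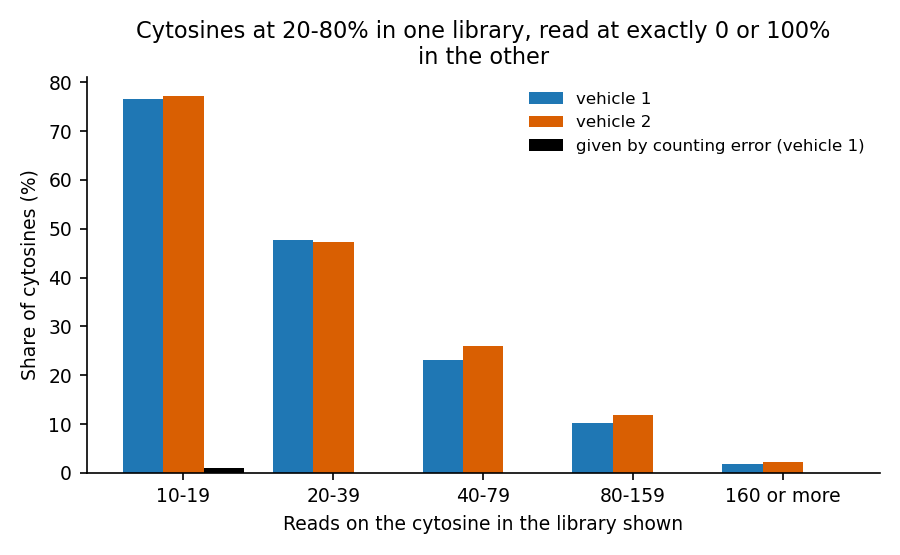
Share of cytosines read at exactly 0% or 100% in a vehicle library (vertical axis, percent) by the reads on the cytosine in that library (horizontal axis), for cytosines between 20% and 80% in the other library with at least 80 reads. Blue and orange bars are vehicle 1 and vehicle 2, and black bars give the share that counting error alone gives in vehicle 1, 0.946% at 10 to 19 reads and too small to see beyond.

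The strands of a CpG within a library differed on average by no less than the same strand in different libraries. Over 194847 CpG sites measured on both strands, r between strands was 0.842 in vehicle 1 and 0.813 in vehicle 2. For the plus strand r between libraries was 0.855, and for the minus strand 0.856. The mean absolute differences were 9.48 and 10.3 points between strands and 8.90 and 8.88 points between libraries.

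Summed over promoters the libraries lay closer together, with r of 0.912 and a median absolute difference of 0.516 points. By two-sided Fisher's exact test on reads with Benjamini-Hochberg adjustment, 321 of 8557 promoters (3.75%) differed between the libraries at q below 0.01 and by at least 25 points. Of these 152 were higher in vehicle 1 and 169 in vehicle 2. The test compares 2 libraries of 1 group, not conditions, and it takes reads as independent. A read that covers several cytosines of a promoter enters it several times. At q below 0.01 with no minimum difference, 2596 promoters (30.3%) differed. The called share was 11.4% among promoters with 3 to 5 cytosines and 0.139% among those with 24 or more. By the limits of the classes no free promoter could be called, and of the 321 calls 317 were intermediate and 4 methylated. In all, 9 promoters were free in one library and methylated in the other.

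**Figure D5:**
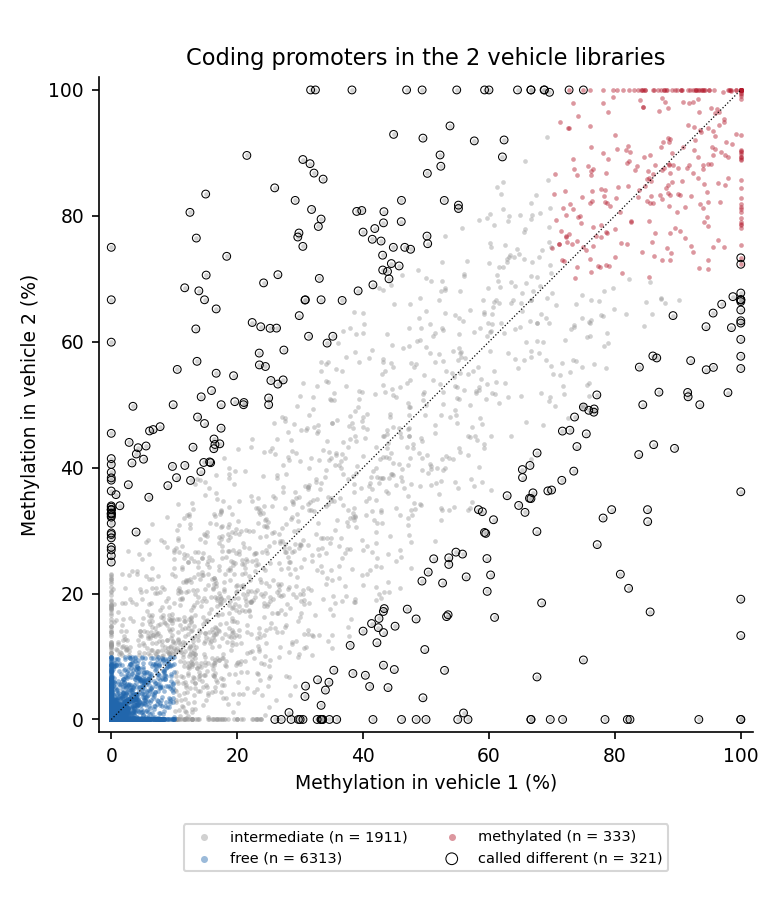
Methylation of the 8557 measured coding promoters in vehicle 1 (horizontal axis, percent) and vehicle 2 (vertical axis, percent), colored by class, with open circles around the 321 promoters called different and a dotted line of equal levels. The 6313 free promoters fill the lower left corner, and the called promoters flank the line on both sides.

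The largest differences among the 98 called promoters with at least 200 reads in each library were at Pmaip1, Avpr1a, Gstt1, Ctbp2, Lrrc23, Ankrd63, Armc5, Pnmal2, Vsnl1 and Dock10. Pmaip1, a proapoptotic p53 target, stood at 0% of 508 reads and 59.9% of 312 reads, each summed over 12 cytosines. The difference was 59.9 points, with an adjusted p of 1.3e-96 by Fisher's exact test, which counts a read at every cytosine it covers. The vasopressin receptor gene Avpr1a was at 68.4% and 18.5%, and Gstt1, a glutathione transferase gene, at 29.6% and 76.6%. Ctbp2, a corepressor gene, was at 3.45% and 49.7%. These 10 promoters had between 4 and 13 measured cytosines each.

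Agreement within the pair of vehicle libraries was set beside that within the pairs of the treated groups. Over 555155 cytosines measured in all 8 libraries, r was 0.864 for vehicle, 0.856 for C29 (10 mg/kg), 0.817 for 5-azadC (1 mg/kg) and 0.795 for both drugs, and mean absolute differences were 10.67, 11.04, 12.38 and 13.24 points. A listed cytosine had a median of 26 reads in both vehicle libraries, against 27 and 23 in the C29 pair, 25 and 30 in the 5-azadC pair and 23 and 21 in the pair given both drugs, so that the pair of lowest r was also the shallowest, and the part of depth was not tested. Over the 6211 promoters measured in all 8, r was 0.914, 0.908, 0.912 and 0.897 in the same order, and mean absolute differences were 3.47, 3.40, 3.12 and 3.45 points, of which the vehicle pair had the highest. With 1 pair a group, these values could not be tested against each other.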

How the data were processed

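RRBS libraries of NIC-5231 tumors were assigned to groups from the treatment labels. Per the submitters' processing notes, FastQC 0.11.8, Trim Galore 0.4.1, Bismark 0.20.0 and methylKit 1.7.0 were used with mm10/GRCm38, while their settings were not stated in what was read here. The files deposited hold a fraction of methylated reads and a count of reads per CpG cytosine and strand, without normalization. Their product was a whole number within 0.01 reads for at least 99.9997% of cytosines in the vehicle libraries. The 2 vehicle libraries were joined, and the 6 others entered only the comparison of pairs. Annotation came from GENCODE M21 and sequence from GRCm38.p6. Promoters were compared between the vehicle libraries by two-sided Fisher's exact test with Benjamini-Hochberg adjustment. The code was also run on simulated counts, drawn for each promoter as a whole. They hold no reads counted at several cytosines, so they do not check the calls in the real libraries. Scripts used Python 3.11.15, NumPy 2.4.6, pandas 2.3.3, SciPy 1.17.1 and matplotlib 3.10.9.

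Members, gene lists and tests were chosen with earlier results of these data known. Named genes were list members with a measured promoter (up to 4 per list and class by most cytosines), the 10 methylated promoters of highest and the 10 free promoters of lowest CpG ratio (10 or more cytosines), and the 10 largest differences among called promoters with at least 200 reads in each library. The text gives a part of these, and some genes are not reported here. Other genes were named after their values had been seen (Hoxa13, Hoxb5, Pax3, Mael, Zrsr1, Usp29, Gnas, Actb, Foxa1, Cldn3, Snai1, Twist1, Dnmt3b, Uhrf1, Brca1, Cdkn2a, Dazl, Papolb, and genes given around the start). Alternatives covered coverage minimum and maximum, strands, start sites, promoter extent, cytosines per promoter, averaging, class limits, the test and each library left out. The treated groups were otherwise not analysed here.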

Additional observations from a re-analysis of the deposited data

Results flagged for a closer look

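The X chromosome was left out of the report's members and stood apart from the autosomes in the same 2 vehicle libraries. The mean over its 28007 cytosines with at least 10 reads in both was 56.5% (56.8% and 56.2%), against 37.0% on autosomes. Within 200 bp of coding starts the mean was 40.5% (41.1% and 39.95%) on the X chromosome and 5.71% on autosomes. Its 132 measured promoters of high CpG content had a median level of 36.2% (38.8% in vehicle 1 and 36.3% in vehicle 2), against 0.295% for 6928 autosomal ones, and 93.2% of them were intermediate against 17.6%. Of all 198 measured X promoters, 9 were free, 177 intermediate and 12 methylated.

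Cytosines on the Y chromosome were also listed. The 171 with at least 10 reads in both libraries had a mean level of 79.4% (79.98% and 78.9%). Their origin was not tested.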

How the results depend on the processing

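Mean methylation was 36.6% with 5 reads in both libraries, 37.4% with 20, 36.9% without the 0.1% of cytosines of highest coverage and 39.5% with strands summed. The share at 10% or less was 51.3% with 20 reads and 50.2% with strands summed, and that at 90% or more was 25.03% and 28.2%. Pearson's r was 0.810 with 5 reads and 0.855 with 20. A minimum of 40 reads, added after seeing the data, gave a mean of 39.3%, shares of 46.4% and 22.9% and r of 0.902. At 2 to 5 kb from starts the mean was 47.4% with 5 reads, 47.3% with 20 and 60.2% around every annotated start, where the mean within 200 bp was 6.51%. With 500 bp on either side of the start, 9482 promoters were free and 511 methylated, of 12410 measured. Methylated promoters numbered 629 with 1 cytosine, 145 with 6 and 218 at limits of 20% and 80%. Calls between the libraries numbered 188 with 20 reads, 83 with 40 reads, 121 with 6 cytosines and 1008 at 10 points. Of the promoters measured in both windows, 97.5% of free, 66.6% of intermediate and 65.1% of methylated ones kept their class around the start. The causes were not tested, apart from fewer or more cytosines and promoters entering. The other 46 of 73 recomputed values moved by less than the spread between libraries, or by less than 1.5 times for counts, or kept r at the same second decimal. They include the means and shares with either library left out. A single library always lies within the SD of the 2, so for those the rule could give no other outcome. Counts of gene lists around the start moved by more than 1.5 times in 23 of 45 cases.

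Leaving out either vehicle library gave means of 36.9% to 37.0%, shares of 53.1% to 54.4% and 26.3% to 27.6%, 5.63% to 5.78% near starts and 47.5% to 47.6% at 2 to 5 kb. Free promoters numbered 6574 to 6585, methylated 448 to 457 and intermediate 1524 to 1526. It could not be done for r or for the calls between the libraries, which need both. No paired analysis was possible because the libraries compared belong to 1 group. Precision of single cytosines moved with depth: r was 0.758 at 10 to 19 reads and 0.948 at 160 or more, where the mean level was also higher (36.1% and 64.2%).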

Other observations

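Chemosensory receptor genes, which lie in large CpG-poor clusters, were almost out of reach: 3 of 1127 autosomal olfactory receptor promoters and 3 of 326 vomeronasal receptor promoters could be scored. The olfactory promoters were all intermediate, between 33.1% and 56.8% on average. Of the vomeronasal ones, Vmn1r4 was free at 0% and 0.0558% over 37 cytosines, Vmn2r69 intermediate at 46.9% and 100%, and Vmn1r188 methylated at 100% and 79.7%, the last 2 over 3 cytosines each.

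On mitochondrial DNA, the 42 measured cytosines averaged 0.0931% in vehicle 1 and 0.257% in vehicle 2, where the unmethylated spike-in stood at 0.234% and 0.302%.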
